A study of Mus musculus with 6 samples.

Results

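Membrane carriers for sugars and amino acids were followed at the level of their promoters in medullary thymic epithelial cells (mTECs) of Kat7-knockout and wildtype mice. The genes were taken by symbol from 9 families of solute carriers: Slc1, Slc2, Slc3, Slc5, Slc6, Slc7, Slc36, Slc38 and Slc43, without Slc38a4. This gave 83 genes of 27095 in the series, of which 81 had enough counts to be tested among 24817 windows. Accessibility was measured by ATAC-seq, a method that uses the Tn5 transposase to mark DNA not covered by nucleosomes. The value of a gene is the number of reads in a window around its start, here 5001 bases long for all 83 genes, so it reports how open the promoter was and not how much transcript or protein was made.

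The 3 Kat7 knockout and 3 wildtype libraries are described as biological replicates from mice on the C57BL/6 background, and the labels give the cells as mTECs with high surface MHC class II. The deleted gene encodes a MYST-type enzyme that acetylates histones. Neither the driver of the deletion, the deleted part of Kat7 nor the age of the mice is given in the sources used here. Levels are in CPM, for which library sizes were multiplied by TMM factors. A log2 fold change is knockout against wildtype, with its standard error (SE), and a gene is said to have risen or fallen where its adjusted p in edgeR's quasi-likelihood test was under 0.05.

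Sugars and amino acids do not cross membranes unaided. Carriers of the SLC2 family (GLUT proteins) let glucose and fructose flow down their gradients, and many SLC5 carriers pull sugars in with sodium. Amino acids use sodium-coupled carriers (SLC1, SLC6, SLC38), proton-coupled carriers (SLC36), and heteromeric exchangers in which an SLC7 light chain is held at the surface by an SLC3 heavy chain. Several members of SLC1 and SLC6 clear neurotransmitters from synapses, and others work in kidney and gut. mTECs need carriers for their own nutrition, and they also transcribe genes that are otherwise restricted to such tissues, which they show to developing T cells as self-antigens.

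Library totals lay between 15482439 and 19740835 counts in knockout and between 15494911 and 19832326 in wildtype, and 3 counts, the limit that a count of 0 allows, correspond to 0.154 to 0.192 CPM (counting error only). The window of Kat7 itself held 11.9, 13.2 and 38.3 CPM in knockout libraries 1 to 3, against 291, 238 and 272 CPM in wildtype libraries 1 to 3 (log2 fold change -3.66, SE 0.574, adjusted p = 0.0143, and 0.0643 without wildtype library 1 and 0.0565 without wildtype library 3). Of 12 mTEC markers, Krt5 rose and none fell, with a summed level of 1595 to 1919.7 CPM in knockout libraries and 1710.2 to 1785 CPM in wildtype libraries. Aire, the regulator of self-antigen expression, held 63.3 ± 5.84 CPM in knockout and 73.9 ± 3.03 CPM in wildtype (SD, n = 3 each; adjusted p = 0.149), in a window that shares 54.1% of its bases with another. Of 23 markers of thymocytes, B cells, myeloid, mesenchymal and endothelial cells, 22 were tested, 8 fell (36.4%) and 3 rose (13.6%). The shares over all windows were 20.2% and 6.36%. The 22 tested had a median of 7.62 CPM in wildtype. With all windows split by level, 32.5% fell and 4.58% rose in the part with a median of 4.13 CPM. In the part with 27.7 CPM, 43.2% fell and 9.28% rose. The mTEC markers had a median of 116 CPM in wildtype, and in the part with 107 CPM 3.72% fell and 9.32% rose. Differences from windows of like level were not tested. The summed level of the 23 markers was 174 to 180.0 CPM in knockout libraries and 221 to 226 CPM in wildtype libraries. None of the 23 markers was at 0 counts in any library. Those of mesenchyme, of which 3 of 4 fell, summed to 70.5 to 73.9 CPM in knockout and 105 to 108 CPM in wildtype, and those of thymocytes, of which 2 of 6 tested rose, to 34.6 to 37.6 CPM in knockout and 27.9 to 31.8 CPM in wildtype. Their part in the results below was not tested, and fewer cells of a type and a less open promoter in each cell cannot be told apart.

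Promoters of these carriers lost accessibility more often than they gained it. Of the 81 tested, 38 fell (46.9%), 6 rose (7.41%) and 37 did not pass, when 20.2% of all 24817 windows fell and 6.36% rose. Median log2 fold changes were -0.34 over the 81 windows and 0.04 over all windows. In 15 of the 38 the loss was at least 2-fold, whereas none of the 6 gains reached 2-fold. Against the wildtype mean, the 81 windows had median log2 ratios of -0.43, -0.31 and -0.31 in knockout libraries 1 to 3, where all windows had -0.07, -0.01 and -0.01. Every one of the 38 lay below the wildtype mean in each knockout library. The groups did not overlap in 36 of the 38 and in 5 of the 6. These carriers were chosen by the difference between the same libraries. Both counts, and the place of all 38 below the wildtype mean, were therefore largely fixed by that choice and add no separate support. Over either direction, the groups were apart in 45 of 81 windows, or 55.6%, against 38.2% of all windows.

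**Figure D1:**
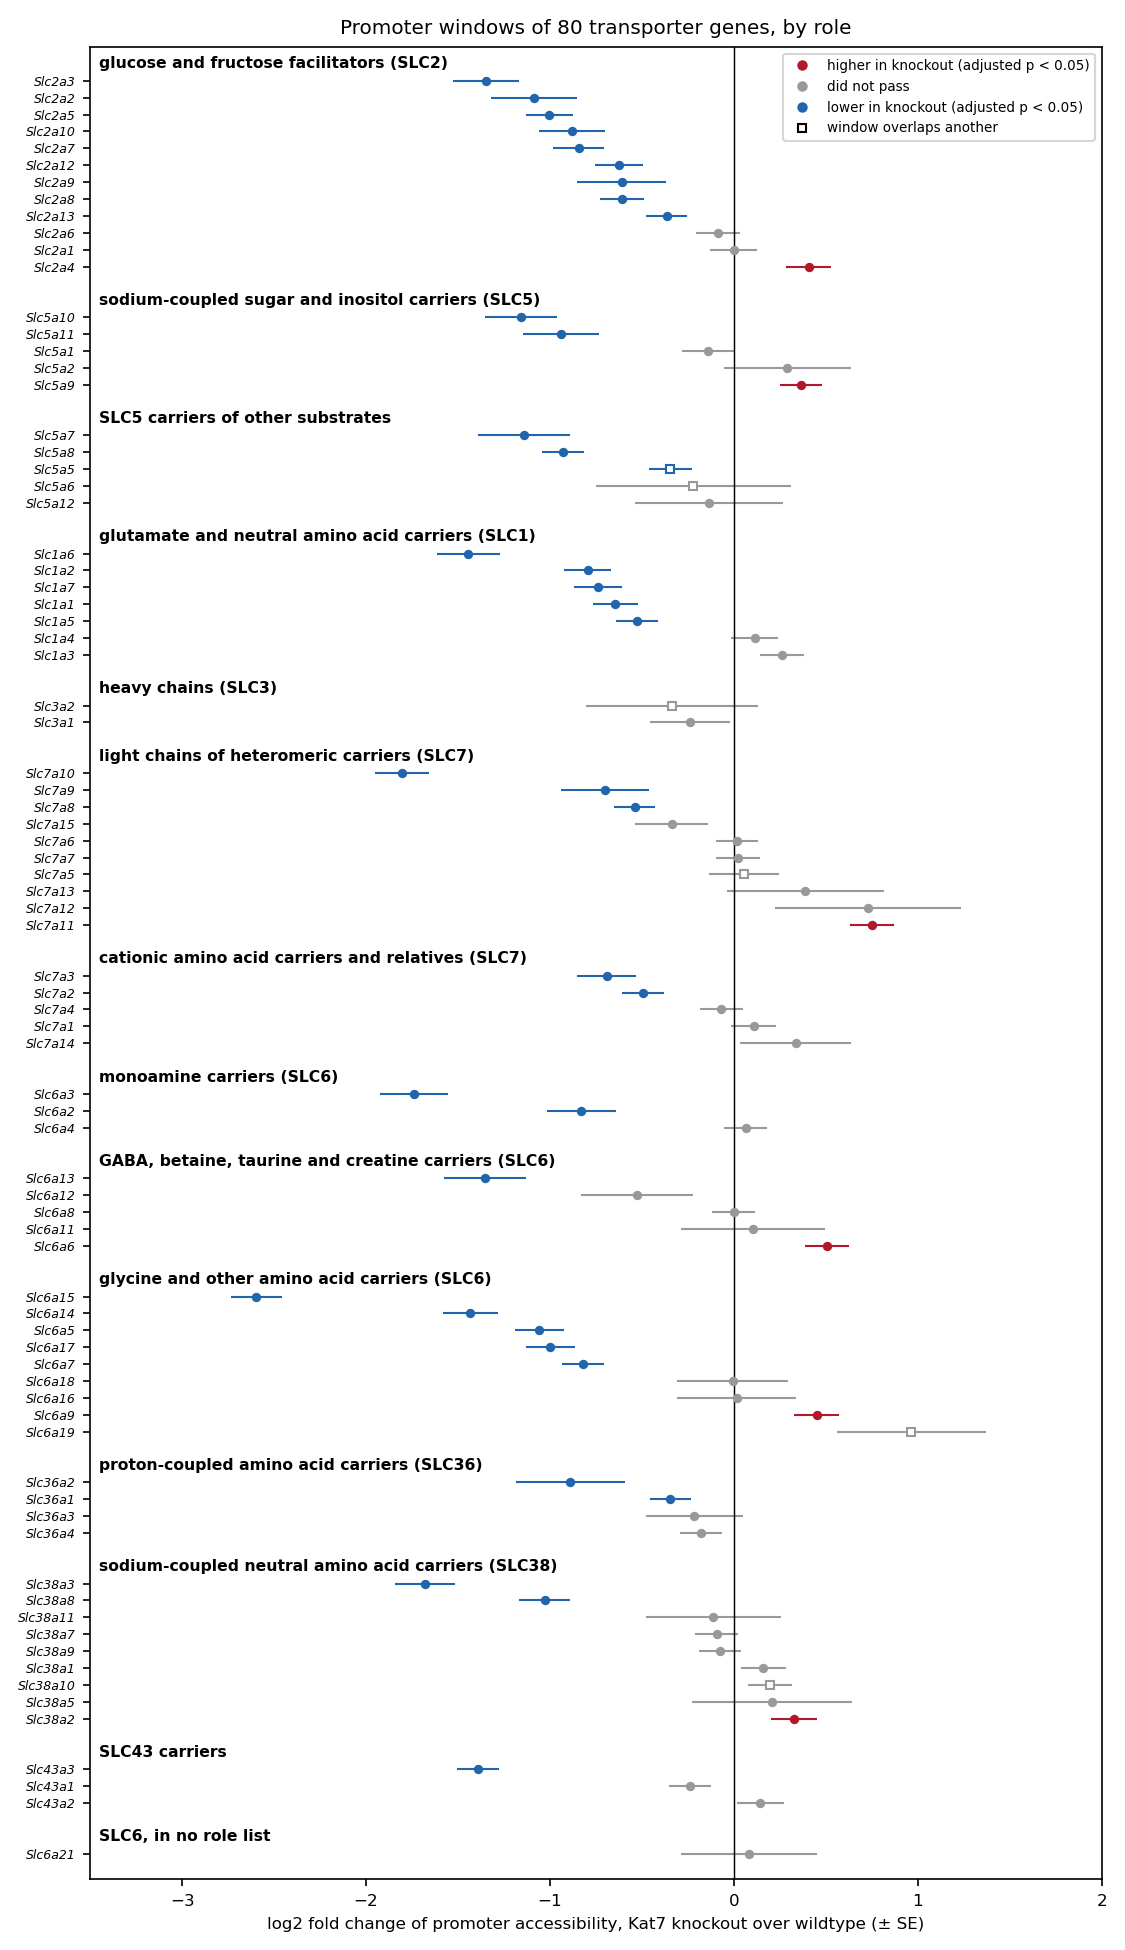
Log2 fold change of promoter accessibility, Kat7 knockout over wildtype, for 80 of the 81 tested carrier genes, grouped by role (points, edgeR estimates; bars, SE; blue, fell; red, rose; grey, did not pass; open squares, windows that overlap another). Losses are spread over all role groups except the SLC3 heavy chains, and reach -2.60 at Slc6a15.

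Among the facilitated sugar carriers (SLC2), 9 of 12 promoters fell (75.0%, against 20.2% of all windows) and 1 rose (8.33%, against 6.36%). Differences between such shares, here and for the roles below, were not tested. Slc2a3 encodes GLUT3, the glucose carrier of neurons. Its window held 2.75, 3.94 and 5.20 CPM in knockout libraries 1 to 3, against 11.7, 7.67 and 10.7 CPM in wildtype libraries 1 to 3. All knockout values lay under the lowest wildtype value (log2 fold change -1.35, SE 0.180, adjusted p = 1.35e-12). Slc2a2, the low-affinity glucose carrier of liver and pancreatic beta cells, held 1.78, 3.28 and 3.06 CPM in knockout, against 6.20, 5.30 and 5.67 CPM in wildtype (-1.09, SE 0.234, adjusted p = 2.90e-05). Slc2a5, the fructose carrier GLUT5, held 9.91, 10.8 and 11.1 CPM in knockout, against 21.1, 21.7 and 21.0 CPM in wildtype (-1.002, SE 0.130, adjusted p = 2.39e-13). The SD within each group of Slc2a5 was under 1 CPM, and its fold of 0.499 was the fifteenth and smallest of the losses of at least 2-fold. The other losses of the family were Slc2a10 (-0.88), Slc2a7 (-0.84), Slc2a12 (-0.63), Slc2a9 (-0.61), a carrier of urate, the intracellular Slc2a8 (-0.61) and Slc2a13 (-0.36), a carrier of myo-inositol. Slc2a9 was close to the threshold (adjusted p = 0.0455), with overlapping groups. It failed to pass in 12 of 14 alternative analyses, among them without any single library other than knockout library 3, with adjusted p up to 0.272. The call of Slc2a12 was lost with loess normalisation (adjusted p = 0.204), and that of Slc2a13 in DESeq2 and without wildtype library 1 (adjusted p up to 0.0987).

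The 4 most open promoters of the family held 1 gain, 1 loss and 2 that did not pass. Slc2a1, the glucose carrier GLUT1 that most cells use, held 248, 197 and 187 CPM in knockout libraries and 226, 199 and 207 CPM in wildtype libraries (log2 fold change -0.000528, SE 0.127, adjusted p = 0.998), and the groups overlapped. With loess normalisation alone among the 14 alternatives, Slc2a1 passed as lower (-0.12, adjusted p = 0.0324). Slc2a6 (110.1 ± 15.3 CPM in knockout, 117 ± 5.79 CPM in wildtype; SD, n = 3 each) did not pass either, except as lower with loess normalisation and without knockout library 1 (lowest adjusted p = 0.00574). Slc2a4, the insulin-responsive GLUT4, rose to 155, 132 and 128 CPM in knockout, against 106, 110.1 and 97.0 CPM in wildtype (0.41, SE 0.122, adjusted p = 0.00477). The loss was that of Slc2a8, with 88.7, 80.0 and 80.5 CPM in knockout and 131, 118 and 130.4 CPM in wildtype (adjusted p = 4.74e-06).

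Of the 5 tested SLC5 carriers of sugars and inositol, 2 fell (40.0%, against 20.2% of all windows) and 1 rose (20.0%, against 6.36%). Slc5a10, which carries mannose and fructose in kidney, had 3.04, 3.76 and 4.04 CPM in knockout, against 8.30, 7.99 and 7.86 CPM in wildtype (log2 fold change -1.16, SE 0.196, adjusted p = 4.05e-08). Slc5a11, a carrier of myo-inositol, fell as well (-0.94). Slc5a9 rose to 50.1, 42.3 and 42.6 CPM in knockout, against 34.1, 34.9 and 35.9 CPM in wildtype (0.36, SE 0.112, adjusted p = 0.00596). Slc5a1, the intestinal sodium-glucose carrier SGLT1, held 10.7, 9.62 and 11.4 CPM in knockout and 11.02, 11.6 and 12.3 CPM in wildtype and did not pass (-0.14, adjusted p = 0.517). It passed in the other direction after loess normalisation (0.32, adjusted p = 0.0467). Slc5a2, the renal SGLT2, did not pass at 2.44 ± 0.558 CPM in knockout and 2.00 ± 0.279 CPM in wildtype (SD, n = 3 each).

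The same family also holds carriers of other substrates, of which 3 of 5 fell. Slc5a7, the choline carrier of cholinergic neurons, had 1.20, 3.11 and 2.87 CPM in knockout, against 5.43, 5.05 and 5.32 CPM in wildtype (log2 fold change -1.14, SE 0.249, adjusted p = 3.69e-05). Slc5a8, a carrier of monocarboxylates, had 22.2 ± 0.607 CPM in knockout and 42.2 ± 3.88 CPM in wildtype (SD, n = 3 each; -0.93). Slc5a5, the iodide carrier of the thyroid, fell less (-0.35, adjusted p = 0.0134), with overlapping groups. It failed to pass with DESeq2 size factors, in DESeq2, and when knockout library 2, knockout library 3 or wildtype library 1 was left out, and its adjusted p reached 0.271 over the 13 alternatives that tested it.

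Among the SLC1 carriers, 5 of 7 promoters fell (71.4%, against 20.2% of all windows) and none rose (6.36% of all windows). The losses were 4 in the 5 carriers of glutamate and 1 in the 2 carriers of neutral amino acids. Slc1a6, the glutamate carrier EAAT4 of cerebellar Purkinje cells, held 3.32, 3.94 and 5.44 CPM in knockout, against 12.8, 9.46 and 12.2 CPM in wildtype (log2 fold change -1.44, SE 0.171, adjusted p = 8.01e-16). Slc1a2 (-0.80), Slc1a7 (-0.74) and Slc1a1 (-0.64), which also carry glutamate, fell with no overlap between groups. Slc1a3, the glutamate carrier of astrocytes, did not pass (0.26, adjusted p = 0.0927, though it passed as higher in 5 of 14 alternatives, among them without wildtype library 2) and was the most open of the glutamate carriers, at 104 ± 10.5 CPM in knockout and 86.7 ± 10.5 CPM in wildtype (SD, n = 3 each). Slc1a5, the glutamine carrier ASCT2, held 43.5, 38.5 and 36.2 CPM in knockout, against 63.5, 53.7 and 52.9 CPM in wildtype (-0.53, SE 0.112, adjusted p = 2.22e-05). Its relative Slc1a4 had the highest level of all 83 windows in wildtype, 215 ± 7.57 CPM, with 232 ± 31.7 CPM in knockout (SD, n = 3 each), and did not pass (0.11, adjusted p = 0.554).

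The heteromeric exchangers held both a large loss and the largest gain that passed. Of the 10 SLC7 light chains 3 fell and 1 rose. Slc7a10 encodes Asc-1, which exchanges small neutral amino acids and D-serine in brain. It held 5.67, 5.61 and 5.44 CPM in knockout, against 21.8, 18.02 and 18.5 CPM in wildtype (log2 fold change -1.80, SE 0.145, adjusted p = 3.14e-33). Slc7a8 (-0.54), the light chain LAT2, and Slc7a9 (-0.70), which pairs with the SLC3A1 chain in kidney, fell too. The call of Slc7a9, with 3.03 ± 1.02 CPM in knockout and 4.92 ± 0.767 CPM in wildtype (SD, n = 3 each), was lost in 7 of 14 alternatives, among them those without knockout library 1, knockout library 2 or wildtype library 3 (adjusted p up to 0.219).

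Slc7a11 encodes xCT, the light chain of the cystine/glutamate exchanger that supplies cysteine for glutathione. Its window rose to 143, 125 and 114 CPM in knockout, against 62.9, 94.2 and 70.0 CPM in wildtype (0.75 on the log2 scale, SE 0.121, adjusted p = 6.91e-09), and it spans 50441613 to 50446613 of chromosome 3 in mm10. Every knockout library lay above every wildtype library, although wildtype library 2 was closer to the knockout libraries than the others. The call held in all 14 alternatives. Slc7a6 (65.2 ± 3.22 CPM in knockout, 64.4 ± 5.64 CPM in wildtype) and Slc7a7 (90.3 ± 10.5 CPM in knockout, 88.8 ± 0.957 CPM in wildtype; SD, n = 3 each), both y+L light chains, did not pass.

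The main heavy chain Slc3a2 rests on few counts, and the light chain LAT1 (Slc7a5) on more. Slc3a2 shares 92.4% of its window and Slc7a5 82.9% with other windows. Only 14 to 21 counts per knockout library and 18 to 30 counts per wildtype library remained for Slc3a2. Slc7a5 had 92 to 115 counts per knockout library and 87 to 118 counts per wildtype library. Its level was 6.02 ± 0.504 CPM in knockout and 5.83 ± 1.49 CPM in wildtype (SD, n = 3 each). The 476 windows of the series whose bases were all shared had a median count of 0, against 224.3 for the 20852 that shared none. Much of the window was also shared in Slc5a3 (99.7% shared), Slc38a6 (82.7%), Slc5a6 (76.6%) and Slc6a19 (62.6%). Slc5a3 and Slc38a6 are the 2 windows that had too few counts to be tested. Slc6a19, a neutral amino acid carrier of gut and kidney, had 2.18, 2.15 and 2.57 CPM in knockout and 1.08, 1.15 and 1.30 CPM in wildtype, with no overlap, and did not pass (log2 fold change 0.96, adjusted p = 0.0631). It passed in 5 of the 12 alternatives that tested it. The other heavy chain, Slc3a1, shares no base and did not pass (-0.24, adjusted p = 0.455).

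The 250 bases before the start of Slc7a10, Slc6a14 and Slc7a11 are given 5′ to 3′ from RefSeq (GRCm38.p6), to show a promoter rich in CG, a promoter poor in CG, both of which fell, and the promoter with the largest gain that passed. Slc7a10 lies at chr7:35186135-35186384 (plus strand), Slc6a14 at chrX:21714650-21714899 (plus strand) and Slc7a11 at chr3:50443614-50443863 (minus strand). Capitals mark CG dinucleotides in the first and second sequence, 14 and 4 of them, and matches to TGATGNAAN in Slc7a11.
Slc7a10: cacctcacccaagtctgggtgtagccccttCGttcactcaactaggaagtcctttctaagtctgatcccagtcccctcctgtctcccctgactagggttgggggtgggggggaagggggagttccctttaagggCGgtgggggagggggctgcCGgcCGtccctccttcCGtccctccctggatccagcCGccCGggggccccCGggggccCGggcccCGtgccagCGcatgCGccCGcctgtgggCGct
Slc6a14: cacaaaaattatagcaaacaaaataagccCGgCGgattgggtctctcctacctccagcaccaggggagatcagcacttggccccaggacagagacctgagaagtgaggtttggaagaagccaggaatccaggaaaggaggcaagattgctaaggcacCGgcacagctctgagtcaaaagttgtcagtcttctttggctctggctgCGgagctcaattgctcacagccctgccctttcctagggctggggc
Slc7a11: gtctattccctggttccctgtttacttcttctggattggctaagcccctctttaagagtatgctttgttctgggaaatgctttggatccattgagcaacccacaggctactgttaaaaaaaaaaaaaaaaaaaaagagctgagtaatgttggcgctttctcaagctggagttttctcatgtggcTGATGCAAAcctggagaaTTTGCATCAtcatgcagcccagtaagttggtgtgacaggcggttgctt

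The letters TGATGNAAN are the core of the amino acid response element, which the stress factor ATF4 binds with C/EBP proteins. They were searched on both strands over 300 bases (250 before to 50 after the start), for which 51 of the 81 tested carriers and 16772 tested windows had a RefSeq promoter inside the counted window. Slc7a11 had a match 66 bases before the start on the gene's strand and another 48 bases before it on the opposite strand, without overlap. A single match or more was present in 4 of 51 carriers (7.84%: Slc7a11, Slc7a7, Slc1a4 and Slc6a21) and in 3.49% of all promoters. At least 2 matches were present in Slc7a11 alone among the 51 and in 11 of 16772 promoters (0.0656%). Other motifs were present in 13.7% of the 51 and 13.3% of all promoters (TGACNNNGC, the antioxidant response element core), in 17.6% and 8.13% (CACGTG, the E-box), and in 9.80% and 13.4% (TATAAA). A match describes these letters only.

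The number of CG dinucleotides overlapped between carriers that fell and those that did not pass, with a median of 12 in the 25 that fell and 18 in the 23 that did not pass. The 300 bases held a median of 15 CG in the 51 carriers and 13 in all promoters. Among carriers that fell, the number ran from 1 in Slc5a7 to 32 in Slc1a6 and Slc1a1. Of 36 carriers with at least 10 CG, 15 fell (41.7%, against 19.1% of all such promoters) and 2 rose (5.56%, against 6.19%). Of 15 with fewer, 10 fell (66.7%, against 21.3%) and 1 rose (6.67%, against 6.18%). The sides of these comparisons differ in level. With fewer than 10 CG the median was 8.05 CPM in wildtype for carriers and 3.44 CPM for all promoters. With at least 10 CG it was 47.2 and 54.2 CPM. Differences from promoters of like level were not tested. Across the 51 promoters the number of CG correlated with the log2 wildtype CPM at Pearson's r = 0.30 and with the log2 fold change at r = 0.18. Over all 16772 promoters these were r = 0.47 and r = -0.09. These points share their libraries and differ in depth, and are given as a description.

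Of the 5 cationic amino acid carriers and relatives, 2 fell (40.0%, against 20.2% of all windows). They were Slc7a3 (log2 fold change -0.69) and Slc7a2 (-0.49), both carriers of arginine and lysine. With loess normalisation Slc7a3 missed the threshold (adjusted p = 0.218). Slc7a1, the widespread arginine carrier CAT1, held 146, 112 and 118 CPM in knockout and 122, 114 and 113 CPM in wildtype, with overlap between the groups (0.11, SE 0.122, adjusted p = 0.556).

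The SLC6 family of sodium- and chloride-coupled carriers held the largest loss. Slc6a15 encodes B0AT2, a carrier of branched-chain amino acids and proline in brain. Its window (chromosome 10, 103364808 to 103369808, mm10) held 3.15, 4.12 and 7.40 CPM in knockout, against 34.6, 26.6 and 27.0 CPM in wildtype. The highest knockout library was far below the lowest wildtype library, and the level in knockout was 0.165 of that in wildtype (log2 fold change -2.60, SE 0.140, adjusted p = 7.33e-70). It was the only loss of at least 4-fold among the 81. Slc6a14, a carrier of neutral and cationic amino acids in lung and colon, held 5.39, 5.91 and 5.87 CPM in knockout, against 14.6, 15.5 and 16.3 CPM in wildtype (-1.43, SE 0.151, adjusted p = 1.12e-19). Slc6a5, the glycine carrier GlyT2 of inhibitory neurons, had 8.25, 8.78 and 10.03 CPM in knockout, against 20.4, 18.2 and 17.6 CPM in wildtype (-1.06, SE 0.135, adjusted p = 1.24e-13). Slc6a17 (-0.999), a carrier of synaptic vesicles, and Slc6a7 (-0.82), the brain proline carrier, also fell. This made 5 of 9 glycine and other amino acid carriers (55.6%, against 20.2% of all windows).

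The other glycine carrier went up. Slc6a9 encodes GlyT1, found in glia and in blood cell precursors. Its window held 159, 131 and 137 CPM in knockout, against 102, 109.8 and 101 CPM in wildtype (log2 fold change 0.45, SE 0.123, adjusted p = 0.00137), with no overlap. Slc6a6, the taurine carrier, likewise rose to 116, 98.5 and 96.7 CPM in knockout, against 73.2, 76.7 and 68.7 CPM in wildtype (0.51, SE 0.119, adjusted p = 0.000136). The creatine carrier Slc6a8 held 81.8 ± 4.77 CPM in knockout and 81.9 ± 2.04 CPM in wildtype (SD, n = 3 each; log2 fold change -0.000533, adjusted p = 0.998).

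Of the 3 monoamine carriers, 2 fell (66.7%, against 20.2% of all windows). Slc6a3, the dopamine carrier, held 1.89, 2.75 and 4.95 CPM in knockout, against 11.6, 9.14 and 11.05 CPM in wildtype (log2 fold change -1.74, SE 0.185, adjusted p = 2.40e-19). The noradrenaline carrier Slc6a2 fell (-0.83), except after loess normalisation (adjusted p = 0.0644), while the serotonin carrier Slc6a4 held 90.8, 82.5 and 76.5 CPM in knockout and 74.5, 88.8 and 75.9 CPM in wildtype (0.06, adjusted p = 0.736). Of the 6 carriers of GABA, betaine, taurine and creatine, 2 fell (33.3%, against 20.2% of all windows) and only Slc6a6 rose (16.7%, against 6.36%). Slc6a13, the GABA carrier GAT2, had 1.32, 2.87 and 3.85 CPM in knockout, against 6.20, 7.99 and 6.32 CPM in wildtype (-1.35, SE 0.222, adjusted p = 1.31e-08). The betaine carrier Slc6a12 (-0.53) and the glial GABA carrier Slc6a11 (0.11), each under 4 CPM in both groups, did not pass. Slc6a16, Slc6a18 and Slc6a21 lay between 1.93 and 2.71 CPM in wildtype and did not pass.

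**Figure D2:**
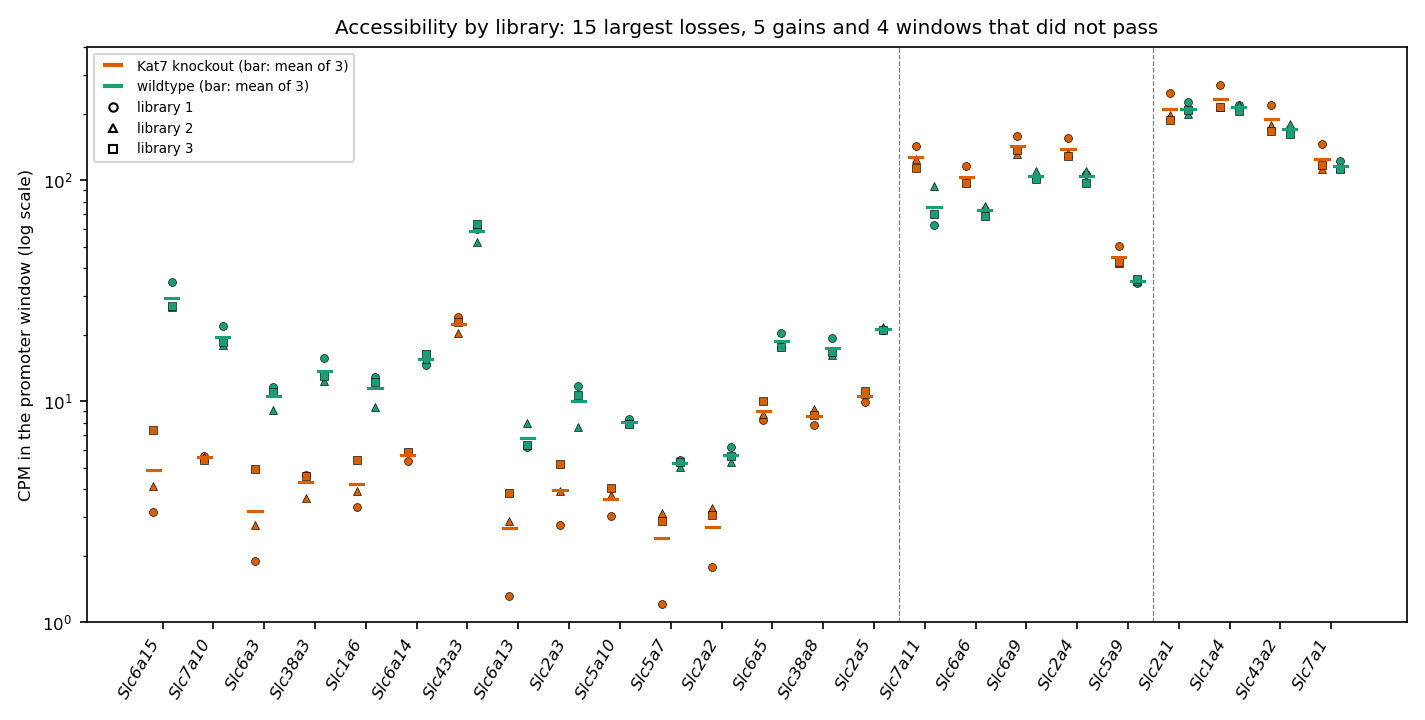
CPM in the promoter window on a log axis, for each library (circles, triangles and squares, libraries 1 to 3 of a group; bars, mean of 3), with knockout in orange and wildtype in green. The 15 losses on the left sit mostly under 25 CPM in wildtype, Slc43a3 (58.7 CPM) and Slc6a15 (29.4 CPM) being higher, and the 5 gains in the middle start at 35.0 to 104 CPM; Slc2a1, Slc1a4, Slc43a2 and Slc7a1 on the right overlap.

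Among sodium-coupled carriers of neutral amino acids (SLC38), 2 of 9 tested fell and 1 rose. The share that fell, 22.2%, was close to the 20.2% of all windows, and 11.1% rose, against 6.36%. Slc38a3, the glutamine carrier SNAT3 of liver, kidney and astrocytes, held 4.64, 3.64 and 4.59 CPM in knockout, against 15.7, 12.4 and 13.1 CPM in wildtype (log2 fold change -1.68, SE 0.163, adjusted p = 4.10e-23). Slc38a8, a glutamine carrier, had 7.79, 9.20 and 8.68 CPM in knockout, against 19.3, 16.2 and 16.8 CPM in wildtype (-1.03, SE 0.138, adjusted p = 1.83e-12). Both were among the less open windows of the family. Slc38a2, the carrier SNAT2 that cells induce when amino acids are short, had 224, 188 and 167 CPM in knockout, against 148, 168 and 147 CPM in wildtype (0.33, SE 0.126, adjusted p = 0.0389). Knockout library 3 lay within the range of wildtype, and the call was lost without wildtype library 1 (adjusted p = 0.219), wildtype library 3 (0.0875) or knockout library 2 (0.1004). Slc38a1 (0.16), Slc38a7 (-0.09), Slc38a10 (0.20) and Slc38a9 (-0.08), whose protein senses arginine at the lysosome for mTORC1, did not pass, with 69.8 to 103 CPM in wildtype. Slc38a9 passed without knockout library 1 (-0.19, adjusted p = 0.0491).

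Of the SLC43 carriers, Slc43a3 fell. Its protein carries purine nucleobases, and its window held 24.1, 20.2 and 22.9 CPM in knockout, against 60.2, 52.6 and 63.4 CPM in wildtype (log2 fold change -1.39, SE 0.115, adjusted p = 1.68e-31). The carriers of large neutral amino acids did not pass: Slc43a2 held 219, 178 and 167 CPM in knockout and 169.6, 179 and 162 CPM in wildtype (0.14, adjusted p = 0.437), and Slc43a1 42.9 ± 5.48 CPM in knockout and 50.7 ± 3.32 CPM in wildtype (SD, n = 3 each; -0.24, adjusted p = 0.104). Slc43a1 passed in 7 of 14 alternatives, among them without wildtype library 2 (adjusted p = 0.0285) and without knockout library 1 (0.00294). Of the proton-coupled SLC36 carriers, 2 of 4 fell. Slc36a1, which exports amino acids from lysosomes, had 36.6, 31.8 and 31.003 CPM in knockout, against 45.8, 42.0 and 38.6 CPM in wildtype (-0.35, SE 0.112, adjusted p = 0.00998), a call lost without knockout library 2 (0.0758), knockout library 3 (0.0791) or wildtype library 1 (0.108), with DESeq2 size factors (0.0663) and in DESeq2 (0.102). Slc36a2 (-0.89) had 2.00 ± 0.389 CPM in knockout and 3.69 ± 0.676 CPM in wildtype (SD, n = 3 each), a call lost without wildtype library 1 (0.158) or wildtype library 3 (0.0794).

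Losses and gains lay at different levels of accessibility. Quartiles of mean log2 CPM over the 6 libraries were formed from all tested windows, whose medians were 1.21, 4.13, 27.7 and 107 CPM from the lowest quartile up. Of the second quartile, 17 of 27 carriers fell (63.0%, against 32.5% of all windows there) and none rose (4.58% of all windows). In the third, 19 of 24 fell (79.2%, against 43.2%) and 1 rose (4.17%, against 9.28%). In the fourth, 2 of 21 fell (9.52%, against 3.72%) and 5 rose (23.8%, against 9.32%), and none of 9 passed in the first, where 1.35% of all windows fell and 2.26% rose. Losses were thus most frequent at middle levels both among carriers and among all windows. The difference in share between them was not tested.

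**Figure D3:**
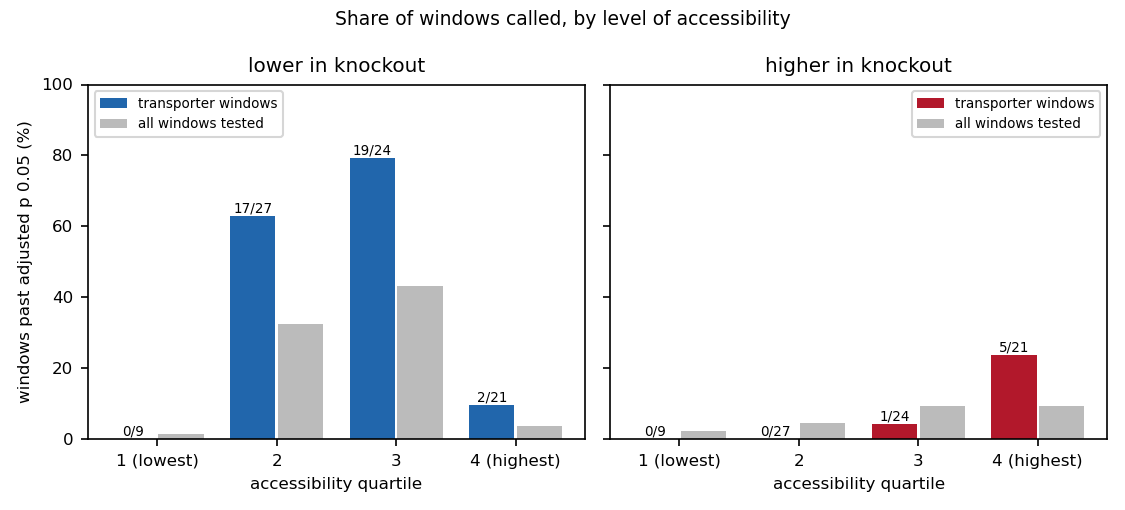
Percentage of windows that fell (left panel) and rose (right panel) in knockout, by quartile of mean accessibility, for the carrier windows (coloured, with the number called of the number tested) and all tested windows (grey). Losses reach 79.2% of carriers in the third quartile, and 5 of the 6 gains stand in the fourth.

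Loess normalisation, which removes a trend of the fold change with level, left 35 of 81 carriers lower (43.2%) and 9 higher (11.1%), when all windows had 19.6% lower and 17.4% higher (4869 and 4320 windows, against 5011 and 1578 with TMM). With library totals alone, 38 carriers were lower and 8 higher, and 5317 and 2937 of all windows. In each of the 6 carriers that rose, knockout library 1 had the highest level of the 3. It was also the lowest knockout library in 19 of the 38 that fell. All 6 carriers that rose also passed without it.

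**Figure D4:**
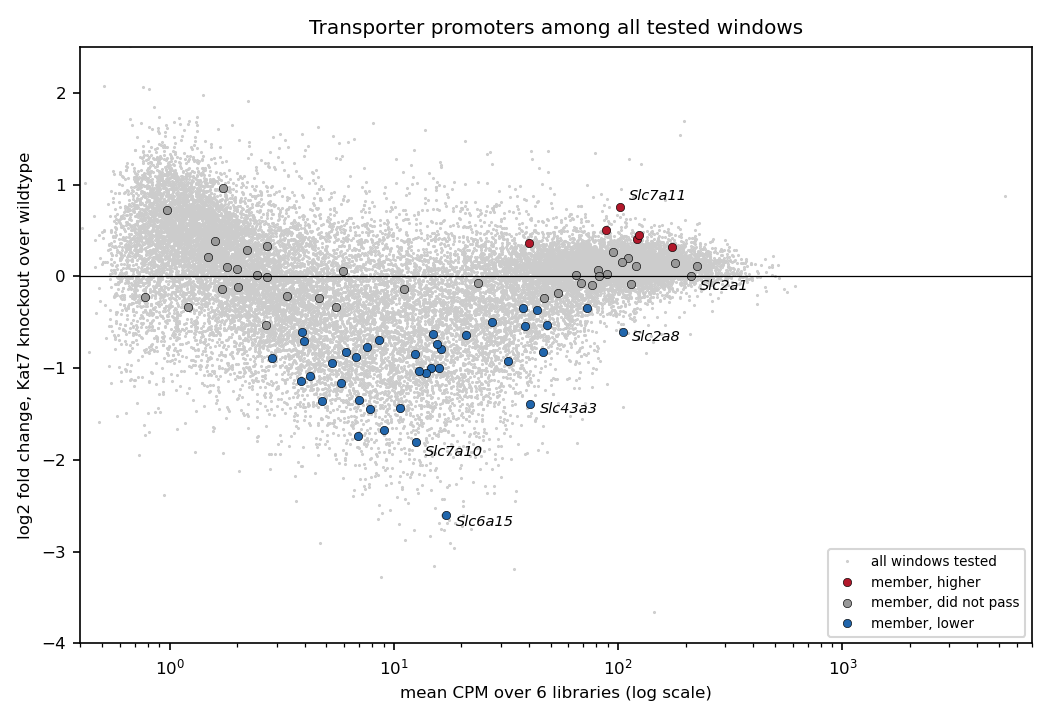
Log2 fold change, Kat7 knockout over wildtype, against mean CPM over 6 libraries on a log axis, for all tested windows (light grey) and the carriers (blue, fell; red, rose; dark grey, did not pass). Carriers that fell form a band between about 3 and 105 CPM, and those that rose lie at 40 CPM or above.

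Neighbouring carrier genes did not always move together. Windows of 12 pairs of carriers lay within 200 kb of each other. Slc2a5 and Slc2a7, 24.6 kb apart on chromosome 4, both fell, as did Slc36a2 and Slc36a1, 13.3 kb apart on chromosome 11, while Slc36a3 beside them did not pass (-0.21). In other pairs 1 gene fell and the other did not pass: Slc6a3 and Slc6a18 (137 kb), Slc6a13 and Slc6a12 (41.4 kb) and Slc43a3 and Slc43a1 (92.2 kb). Slc38a2 rose and Slc38a1, 51.8 kb away on chromosome 15, did not pass. Over the carriers that fell, the nearest tested window outside the set was lower in 13 of 37 (35.1%); over all windows that fell, that share was 31.5%. Nearest to Slc6a15, 125485 bases away, lay the window of Lrriq1 (log2 fold change -2.65), a pair singled out after its values were seen.

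Genes that act beside the carriers were counted in the same way. Of 29 genes of amino acid sensing and the amino acid stress response, 26 were tested, with a median log2 fold change of 0.08. Their median level was 65.9 CPM in wildtype. Over all windows, 20.2% fell and 6.36% rose. In the third quartile of level, with a median of 27.7 CPM, 43.2% of all windows fell and 9.28% rose. In the fourth, with a median of 107 CPM, 3.72% fell and 9.32% rose. In this list 1 gene fell and 1 rose (3.85% each). Both encode Rag GTPases, which bring mTORC1 to the lysosome. Rragb had 10.9 ± 0.918 CPM in knockout and 24.2 ± 2.90 CPM in wildtype (-1.15, SE 0.127, adjusted p = 4.05e-18), and Rragd had 94.0 ± 13.7 CPM in knockout and 69.0 ± 4.39 CPM in wildtype (0.45, SE 0.118, adjusted p = 0.000961; SD, n = 3 each). Atf4 itself did not pass, at 239 ± 24.6 CPM in knockout and 239 ± 16.9 CPM in wildtype. Of 23 genes of glycolysis and the glucose response, 6 fell (26.1%, against 20.2% of all windows) and 1 rose (4.35%, against 6.36%). Their median log2 fold change was -0.07, and their median level was 85.9 CPM in wildtype. Differences of both lists from windows of like level were not tested. Among those that fell were the liver and red cell pyruvate kinase Pklr (-1.67) and the hexokinases Hk2 (-0.71) and Hk3 (-0.54). Pfkp (-0.48) and the glucose-sensing factor Mlxipl (-0.39) fell too.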

How the data were processed

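For each library the authors deposited read counts in windows around gene starts, as whole numbers. The submitters' processing notes name featureCounts and the mouse build mm10. How reads were aligned, whether duplicates were removed and whether reads were shifted for Tn5 is not stated in the labels. Retained duplicates would raise single windows. Counts were equal in the series table and in the tables of the 6 libraries, from which symbols were joined by gene identifier. The test was made with edgeR 4.0.16 in R 4.3.3: filterByExpr, TMM factors (0.884 to 1.06), robust glmQLFit and glmQLFTest over all 24817 windows, and Benjamini-Hochberg adjustment at 0.05. The biological coefficient of variation was 10.9%. The pipeline was tested on simulated data. The SE is the log2 fold change over the square root of F. Window overlaps and promoter letters were computed from the files' coordinates and RefSeq; in 40 of 53 carriers with a promoter its start lay exactly 3000 bases into the counted window.

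Named are the 15 largest losses and up to 10 gains with no overlap between groups, 16 well-known carriers, carriers within 200 kb of each other, and single genes behind small counts. Carriers, gene lists and tests were chosen with earlier results of these data known. Alternatives were other scalings, DESeq2 1.42.0, other filters, a replicate block, windows sharing no base, and leaving out each library. Some genes of these lists are counted but not reported here by name.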

Additional observations from a re-analysis of the deposited data

How the results depend on the processing

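With the counts as deposited, 14 alternatives were run. The 44 carriers that passed kept their direction in each alternative that tested them, and 28 of the 38 that fell and 5 of the 6 that rose also kept their call in all of these. Carriers that fell numbered 33 to 39 and those that rose 6 to 10 over the alternatives with all libraries, and 33 to 40 and 5 to 8 when each library was left out in turn. In the latter, 16.9% to 22.6% of all windows were lower and 2.73% to 12.6% higher. The share that rose was smaller in carriers than in all windows with library totals, loess, the higher minimum count and the replicate block. This was also so without knockout library 1 (9.88% against 12.6%). In the other alternatives it was larger in carriers. The number that rose moved to 10 of 65 when a mean count of at least 50 was required, where 36 fell (29.2% lower and 23.3% higher over all windows). The median log2 fold change of the carriers moved to -0.21 with loess normalisation and to -0.50 with the mean count of at least 50, and lay between -0.36 and -0.25 when each library was left out, with -0.25 without wildtype library 3. The Kat7 window lay between -4.41 and -3.38 when each library was left out. The cause of these moves was not tested, except that the higher minimum leaves fewer windows.

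Some carriers that did not pass changed the sign of their log2 fold change in some alternatives. Slc1a4, Slc3a1, Slc7a7 and Slc7a4 were among them. With loess normalisation Slc7a4 passed as higher (0.250, adjusted p = 0.0359). For further carriers, though not all, the changed values follow. With DESeq2 size factors, the log2 fold change was 0.0533 for Slc2a1, 0.0453 for Slc6a18. With DESeq2, it was 0.0503 for Slc2a1, 0.0411 for Slc6a18. With a mean count of at least 50, it was 0.0196 for Slc2a1. With loess normalisation, it was 0.322 for Slc5a1, -0.0619 for Slc6a11, 0.0713 for Slc6a18, -0.0190 for Slc6a21. With no filter, it was -0.00531 for Slc6a16. With the replicate block, it was -0.0389 for Slc6a16. When each library was left out in turn, it ranged over -0.141 to 0.0785 for Slc2a1, -0.275 to 0.264 for Slc6a11, -0.277 to 0.330 for Slc6a16, -0.124 to 0.153 for Slc6a18, and over -0.117 to 0.240 for Slc6a21, -0.00592 to 0.122 for Slc6a4, -0.0194 to 0.182 for Slc7a1, -0.0710 to 0.234 for Slc7a5.

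Deviations from the group means correlated at 0.374, 0.0284 and 0.389 for libraries that share number 1, 2 and 3. Each wildtype library correlated best with the knockout library of its own number. Knockout library 2, however, correlated best with wildtype library 3 (0.308). Whether the libraries were paired was not tested, and the main fit used no block. With the replicate number as a block, 39 carriers fell and 8 rose (median -0.32), against 5537 and 2824 of all windows, and Kat7 had -3.81. Of the 37 carriers that did not pass, 14 passed in at least 1 alternative, among them Slc43a2 and Slc38a1 with a mean count of at least 50, Slc38a10 with that minimum and with library totals, and Slc38a7 with loess. Counts were lowest in the 9 carriers of the lowest quartile, where none passed, and 1.35% of all windows there fell and 2.26% rose.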
